A study of Mus musculus with 8 samples.

Results

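The genes described here are 10 cytotoxic T and NK genes, taken by name from a fixed list: Cd8a, Cd8b1, Cd3e, Gzma, Gzmb, Gzmk, Prf1, Nkg7, Il2rb and Eomes. The list was chosen with earlier results of these data known. A bulk liver RNA-seq table of 15283 genes held 9 of the 10, and Gzmk was not analysed in bulk. A table of liver nuclei with 22578 genes held all 10. The tested mice were Tgfbr1 MKO, which carried floxed Tgfbr1 alleles and LysMcre, and the control mice carried the flox/flox alleles without LysMcre. Both genotypes received a MASH diet (a diet that models metabolic dysfunction-associated steatohepatitis) for 30 weeks, so neither group shows liver without the diet. LysMcre expresses Cre from the Lyz2 locus, which is active mainly in myeloid cells, whereas the genes followed here are known from lymphocytes. The sources used here give neither age nor sex of the mice. The bulk assay had 3 MKO and 3 control libraries, and the nuclei assay had 1 library per genotype, each made from 3 pooled livers.

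CD8 T cells and NK cells kill infected or damaged cells by releasing granules. Perforin opens the membrane of the target cell and granzymes, which are serine proteases, enter through it and start cell death. IL-2 and IL-15 keep these cells alive through a receptor chain that they share, and T-box transcription factors such as Eomes set up their killing program. In steatohepatitis, CD8 T cells accumulate in the liver, where NK cells are already abundant in health.

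The promoters of 4 of the genes carried a match to a motif of a transcription factor family known in cytotoxic lymphocytes, and the stretches that hold those matches are shown. RefSeq promoter windows (GRCm38.p6) were found for 8 of the 10 genes, and no entry was found for Cd8b1 and Il2rb. Each window ran over 300 bases. The T-box motif GGTGTGA, on either strand, was present in 2 of the 8 windows and in 3.98% of all 32851 windows. The Runx motif TGTGGTT was present in 2 of 8, against 5.27% of all windows. The NFAT core GGAAAA was present in 1 of 8, against 23.4% of all windows, and the AP-1 motif TGANTCA in 1 of 8, against 7.81%. No position was matched by more than 1 of the motifs. The share of all windows that held any of the 4 motifs was not computed, so the count of 4 genes is a description. A match describes letters and not binding. The 150 bases before the RefSeq start of each of the 4 genes follow, read 5′ to 3′ on the gene's own strand, with the matches in capitals.
Gzma: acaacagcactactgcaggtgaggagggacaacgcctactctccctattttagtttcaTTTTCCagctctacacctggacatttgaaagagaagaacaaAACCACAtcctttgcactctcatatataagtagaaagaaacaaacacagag
Gzmb: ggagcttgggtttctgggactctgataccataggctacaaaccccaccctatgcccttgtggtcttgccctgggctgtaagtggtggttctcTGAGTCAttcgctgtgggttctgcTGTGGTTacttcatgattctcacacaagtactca
Gzmk: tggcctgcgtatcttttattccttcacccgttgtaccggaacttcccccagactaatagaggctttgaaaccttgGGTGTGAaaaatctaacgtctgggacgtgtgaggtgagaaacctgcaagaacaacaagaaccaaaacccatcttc
Nkg7: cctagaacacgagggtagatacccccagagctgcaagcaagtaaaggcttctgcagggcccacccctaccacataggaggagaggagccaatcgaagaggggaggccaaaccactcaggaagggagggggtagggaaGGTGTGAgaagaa
The Gzma stretch is chr13:113100982-113101131 on the minus strand, with the NFAT core at −92 and the Runx motif at −51, counted from the start. The Gzmb stretch is chr14:56262335-56262484 on the minus strand, with AP-1 at −58 and Runx at −34. The Gzmk stretch is chr13:113180966-113181115 on the minus strand, with the T-box motif at −75. The Nkg7 stretch is chr7:43436988-43437137 on the plus strand, with the T-box motif at −13. The windows of Cd8a, Cd3e, Prf1 and Eomes held none of the 4 motifs.

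Recovered reads ranged between 17448117 and 23986319 per bulk library. The targeted gene Tgfbr1 had 560, 857 and 735 normalised counts in MKO livers, against 737, 810 and 777 in control livers (adjusted p = 0.816), and gene-level values do not tell deleted from intact exons apart. In nucleus cluster 2, whose macrophage list summed to 66.5 in the MKO pool and 55.8 in the control pool, Tgfbr1 was at 4.87 in the MKO pool and 13.5 in the control pool, and in the T and NK cluster (cluster 7) it was at 2.23 in the MKO pool and 2.61 in the control pool. On the second principal component (20.8% of variance) the library MKO 1 lay at 48.5 and the other 5 libraries between −23.0 and 4.67. The labels number the libraries of each genotype and do not tie the numbers to mice, so each p-value below reflects the spread among these 6 libraries, which may be technical.

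Which cytotoxic genes differed in whole liver between the genotypes was asked first. All 9 genes measured were higher on average in MKO livers, and 4 of them, Cd8a, Cd3e, Gzmb and Il2rb, rose past an adjusted p of 0.05 in limma's test. Over all 15249 genes tested, 2.96% were higher and 0.0853% lower past that adjusted p. None of the 9 had a negative fold change in limma or DESeq2, nor did any of the 8 to which edgeR gave a value, which leaves out Eomes. At an unadjusted p under 0.05 in limma, 8 of the 9 were higher, against 8.37% of all genes. edgeR and DESeq2 on the recovered reads called 4 and 5 of the genes higher, against 3.28% and 4.15% of all genes they tested. A fit with the replicate number as a block called 2 of them, against 2.56% of all genes, and the 6 fits without 1 library called 0 to 3, against 1.15% to 2.69%. Other scalings, pseudocounts and filters called 4, against 2.74% to 3.36%. In 8 of the 9 genes every MKO library was above every control library, against 10.4% of all genes tested, and Prf1 was the exception. The median log2 fold change of the 9 genes was 1.55, and that of all genes was −0.02. All 9 genes passed the filter of a mean value of 1. Whole tissue cannot tell more cytotoxic cells from more RNA of these genes per cell.

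The summed normalised count of the 9 genes was 314, 389 and 429 in the MKO libraries, against 132, 164 and 112 in the control libraries. The lowest MKO sum was thus above the highest control sum. These are small counts: the recovered reads of single genes ran between 1, for Eomes in control 1, and 100, for Il2rb in MKO 3.

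**Figure D1:**
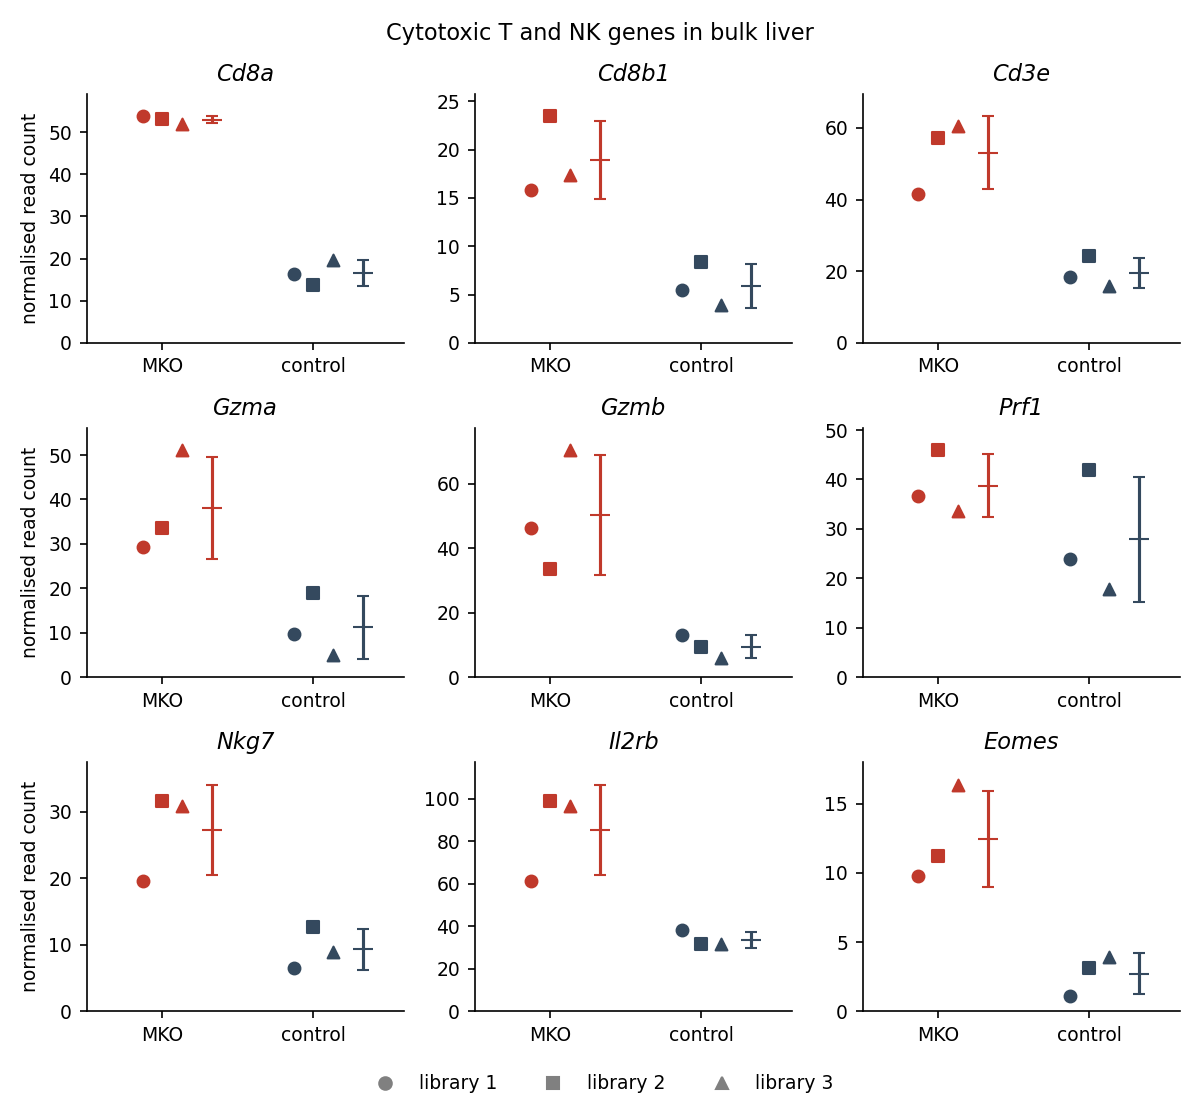
Normalised read count (linear axis from 0) of each of the 9 genes in each bulk library; MKO libraries are red and control libraries dark, the symbol gives the library number and the bar the mean ± SD of 3 libraries. Groups overlap in Prf1 alone, where the MKO livers had 33.7 to 45.9 and control 2 had 42.0.

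Of the coreceptor and T cell receptor genes, Cd8a and Cd3e rose and Cd8b1 did not pass. Cd8a and Cd8b1 encode the α and β chains of CD8, which binds MHC class I beside the T cell receptor. Cd8a had 53.7, 53.0 and 52.0 normalised counts in MKO livers, against 16.3, 13.6 and 19.7 in control livers. The MKO libraries lay within a very narrow range and the groups were far apart (52.9 ± 0.854 in MKO and 16.5 ± 3.04 in control livers, SD, n = 3 each). The log2 fold change was 1.63 ± 0.25 (SE; adjusted p = 0.0113, limma). Leaving out MKO 2 or MKO 3 raised the adjusted p to 0.0645 and 0.0620, and the other 4 leave-one-out fits kept the call.

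Cd8b1 had 15.9, 23.5 and 17.3 normalised counts in MKO livers, against 5.43, 8.40 and 3.94 in control livers. The groups did not overlap and the log2 fold change was 1.55 ± 0.41 (SE), but the limma adjusted p was 0.101 and the gene did not pass. The 2 CD8 chains gave ratios of means of 3.20 and 3.19. Cd8a lies on chromosome 6 at 71373427 to 71379173 and Cd8b1 at 71322788 to 71337494, both on the plus strand (GRCm38, GENCODE).

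Cd3e encodes the ε chain of CD3, the signalling complex of the T cell receptor in all αβ and γδ T cells. It had 41.5, 57.1 and 60.7 normalised counts in MKO livers, against 18.5, 24.1 and 15.8 in control livers. All MKO values were above all control values (53.1 ± 10.2 in MKO and 19.5 ± 4.28 in control livers, SD, n = 3 each), and the log2 fold change was 1.40 ± 0.28 (SE; adjusted p = 0.0328, limma). The call held without MKO 1 (adjusted p = 0.0389). It was lost without control 1 (0.0882), control 2 (0.0607), control 3 (0.0974), MKO 2 (0.148) and MKO 3 (0.157). The gene overlaps Gm48719 on the opposite strand and Gm48720 on its own strand, and the sources used here do not say whether reads were assigned by strand.

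Of the 4 granule genes measured in bulk, Gzmb rose and Gzma, Nkg7 and Prf1 did not pass. Gzmb encodes granzyme B, which cleaves caspases and their substrates in the target cell. It had 46.4, 33.7 and 70.3 normalised counts in MKO livers, against 13, 9.45 and 5.91 in control livers. It had the largest log2 fold change of the 9 genes in this fit, 2.28 ± 0.39 (SE; adjusted p = 0.0169, limma), with means of 50.1 ± 18.6 and 9.46 ± 3.56 (SD, n = 3 each) in MKO and control livers. The MKO values were spread widely, and the lowest of them, in MKO 2, still lay above every control value. The call was lost without control 2 (adjusted p = 0.0622), MKO 1 (0.0527) and MKO 3 (0.0912).

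Gzma encodes granzyme A, a tryptase that is abundant in NK cells and also cleaves gasdermin B in human cells. It had 29.3, 33.7 and 51.0 normalised counts in MKO livers, against 9.77, 18.9 and 4.93 in control livers. The groups did not overlap, and the control values themselves were spread widely around their mean (11.2 ± 7.09, SD, n = 3). The log2 fold change of 1.81 ± 0.47 (SE) did not pass in limma (adjusted p = 0.0993), while DESeq2 on the recovered reads gave an adjusted p of 0.0254.

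Nkg7 encodes a membrane protein of cytotoxic granules that promotes their release. It had 19.5, 31.6 and 30.8 normalised counts in MKO livers, against 6.51, 12.6 and 8.87 in control livers. The groups were separate, with a log2 fold change of 1.47 ± 0.37 (SE), and the limma adjusted p of 0.0910 missed the threshold.

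Prf1 encodes perforin, the pore-forming protein without which granzymes do not reach the cytosol. It had 36.6, 45.9 and 33.7 normalised counts in MKO livers, against 23.9, 42.0 and 17.7 in control livers. Control 2 was above 2 of the 3 MKO libraries. The log2 fold change was 0.54 ± 0.34 (SE), with a 95% interval of −0.24 to 1.32 and an adjusted p of 0.616 (limma). This was the smallest fold change of the 9 genes in this fit.

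The receptor gene Il2rb encodes the β chain shared by the IL-2 and IL-15 receptors. It had 61.0, 98.9 and 96.3 normalised counts in MKO livers, against 38.0, 31.5 and 31.5 in control livers. MKO 1 was the lowest MKO library and still lay above every control library (85.4 ± 21.2 in MKO and 33.7 ± 3.75 in control livers, SD, n = 3 each). The log2 fold change was 1.29 ± 0.25 (SE; adjusted p = 0.0290, limma). The call held without MKO 1 (adjusted p = 0.0172). It was lost without control 1 (0.0539), control 2 (0.115), control 3 (0.0909), MKO 2 (0.142) and MKO 3 (0.140).

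Eomes encodes eomesodermin, a T-box factor of NK cells and memory CD8 T cells. It had 9.76, 11.2 and 16.4 normalised counts in MKO livers, against 1.09, 3.15 and 3.94 in control livers, which are 8, 11 and 17 reads in the MKO livers and 1, 3 and 4 reads in the control livers. The lowest MKO library was above the highest control library. The log2 fold change was 1.91 ± 0.52 (SE), with a limma adjusted p of 0.119, so the gene did not pass. Eomes also overlaps Gm33460 on the opposite strand.

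**Figure D2:**
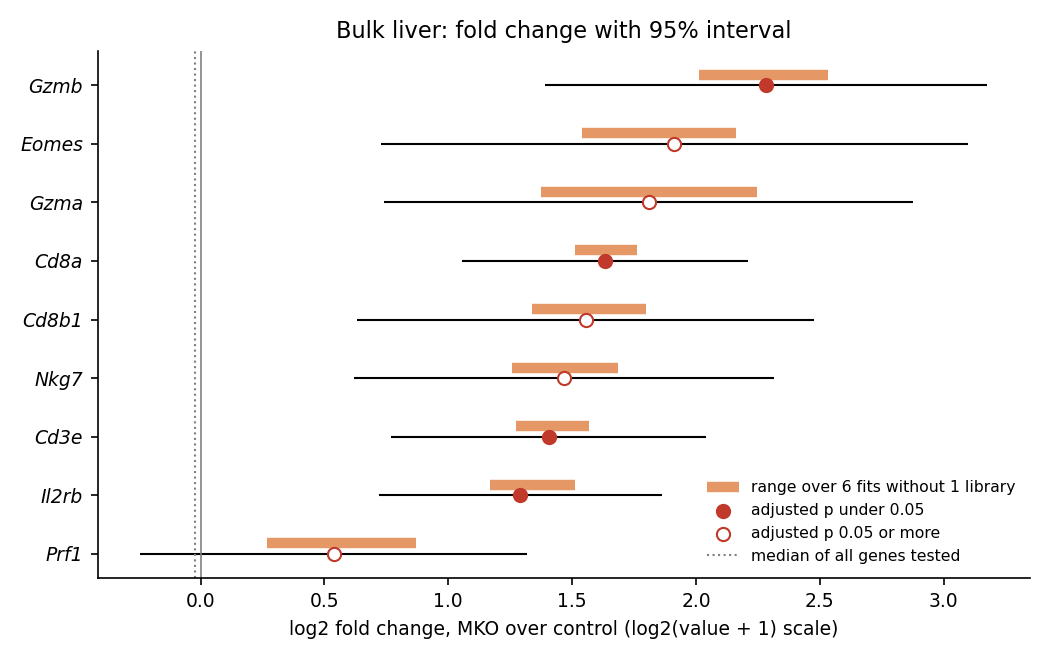
Log2 fold change, MKO over control, of the 9 genes in bulk liver (points; filled where the adjusted p was under 0.05), with the 95% interval (thin line) and the range over the 6 fits that each left out 1 library (thick line). The points ran from 0.54 for Prf1 to 2.28 for Gzmb, and the dotted line marks the median of all genes, −0.02.

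The authors' deposited table called 5 of the 9 genes higher at an adjusted p under 0.05, against 4.99% of the genes it tested. These were Cd8a (0.0185), Cd3e (0.00194), Gzma (0.0131), Gzmb (5.71e-05) and Il2rb (9.44e-05), and Cd8b1 (0.106), Prf1 (0.711), Nkg7 (0.111) and Eomes (0.221) were not called in the authors' deposited table.

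The balance among the genes was examined next. Per kilobase of exon, the level of Gzma was the highest in both genotypes, at 37.8 normalised counts per kb in MKO livers and 11.1 in control livers. Gzmb was at rank 2 per kb in MKO livers (34.9) and at rank 5 in control livers (6.59). Prf1 was at rank 5 in MKO livers (15) and at rank 2 in control livers (10.8). Eomes was the lowest in both, at 3.0 per kb in MKO livers and 0.656 in control livers. In either genotype the library ranges of neighbours in this order overlapped, except that Eomes lay below the gene above it, Cd8b1.

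In bulk liver, Prf1 relative to Cd3e was lower in the MKO libraries. The log2 ratio of Prf1 to Cd3e was −0.18, −0.31 and −0.83 in MKO livers, against 0.36, 0.77 and 0.16 in control livers. The groups did not overlap, and the difference of −0.87 had an exact two-sided permutation p of 0.1, the smallest that 3 against 3 libraries allow, or 0.64 after Benjamini-Hochberg adjustment over the 8 genes compared. The same ratio to Cd3e differed by 0.88 for Gzmb (exact permutation p = 0.2), and the other 6 differences lay between −0.11 for Il2rb and 0.51 for Eomes with overlapping groups. This test cannot go below 0.1 with 3 against 3 libraries, so it can call no change in balance. In the T and NK cluster of the nuclei, the linear ratio of the MKO pool over the control pool was 1.72 for Prf1 and 1.37 for Cd3e. There Prf1 was thus higher relative to Cd3e in the MKO pool, with 1 pool per genotype and no test.

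Other genes of lymphocytes and neighbouring cells were read beside these, from lists of fixed membership. Counts below are of the genes tested in bulk, and some lists held more. Tested were 6 of 16 NK receptor genes and 5 of 9 helper and regulatory T cell genes. So were 5 of 8 exhaustion and residency genes and 2 of 8 genes of γδ, invariant and innate lymphoid cells. Limma called 2.96% of all genes tested higher. In 12 of 18 T cell receptor and signalling genes every MKO library was above every control library, against 10.4% of all genes tested. All 18 had a log2 fold change above 0, and the median was 1.11. Limma called none of them, while 13 had an unadjusted p under 0.05, edgeR called 2 (Trac and Trbc1, chains of the receptor) and DESeq2 called 3 (Trac and Trbc2 among them). Zap70, the receptor's kinase, had the highest mean among them and a log2 fold change of 0.61 ± 0.21 (SE; adjusted p = 0.276, limma). Of 6 NK receptor genes, 2 rose: Fcgr3, the activating low-affinity IgG receptor, by 1.74 ± 0.21 on the log2 scale (SE; adjusted p = 0.00442, limma), and Cd244a, the 2B4 receptor, by 3.01 ± 0.41 (SE; adjusted p = 0.00649, limma). Myeloid cells express both as well, and both calls held in all 6 leave-one-out fits. In the T and NK cluster of the nuclei, Fcgr3 was at only 0.101 in the MKO pool and 0.0257 in the control pool. Cd244a was at 1.48 and 1.34 in the MKO and control pools there. Klrk1, the NKG2D receptor of killer cells, is named after its values were looked at. This gene had 45.2, 73.4 and 62.6 normalised counts in MKO livers, against 29.3, 21.0 and 13.8 in control livers (adjusted p = 0.0533, limma).

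Among 11 cytokine and receptor genes of killer cells, 2 rose, against 2.96% of all genes tested. Il15, the cytokine that acts through Il2rb, had 40.3, 29.6 and 31.8 normalised counts in MKO livers, against 14.1, 10.5 and 7.88 in control livers (log2 fold change 1.58 ± 0.33, SE; adjusted p = 0.0382, limma). The groups were separate, but of the leave-one-out fits only the one without control 1 kept the call (adjusted p = 0.0439). The p was above 0.05 without control 2 (0.123), control 3 (0.105), MKO 1 (0.120), MKO 2 (0.118) and MKO 3 (0.139). Il2rg, the γ chain that pairs with Il2rb, had a log2 fold change of 1.48 ± 0.31 (SE; adjusted p = 0.0422, limma), a call that was lost without control 2 (0.155), control 3 (0.120), MKO 2 (0.156) and MKO 3 (0.171).

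Of 11 chemokine and receptor genes, 2 rose, Ccl4 among them, and Cx3cr1 fell. Of all genes tested, 2.96% rose and 0.0853% fell. Ccl4, a chemokine that activated killer cells and macrophages release, had a log2 fold change of 2.51 (adjusted p = 0.0432, limma), which held only without control 2 (0.0305) and was lost without control 1 (0.104), control 3 (0.120), MKO 1 (0.0851), MKO 2 (0.137) and MKO 3 (0.209). Cx3cr1, which marks effector lymphocytes and also macrophages, had 7.32, 17.3 and 10.6 normalised counts in MKO livers, against 55.4, 71.4 and 80.8 in control livers (log2 fold change −2.52; adjusted p = 0.00691, limma). It was the single gene of the lists that fell in limma, and the call held in all 6 leave-one-out fits.

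The calls in the remaining killer-cell lists stand beside 2.96% of all genes tested that limma called higher. Of 11 other granule genes 2 rose, Srgn, the granule proteoglycan (1.36 log2, adjusted p = 0.0158, limma), and Stx11, a syntaxin of granule fusion (1.49, adjusted p = 0.0229, limma). Srgn was lost without MKO 2 (0.0682) and MKO 3 (0.0749), and Stx11 without control 2 (0.0682), MKO 1 (0.0558), MKO 2 (0.10) and MKO 3 (0.113). Of 11 transcription factors 2 rose, Batf (2.71, adjusted p = 0.0108, limma) and Zeb2 (0.73, adjusted p = 0.0339, limma). Batf was lost without MKO 2 (0.0593) and MKO 3 (0.0718), and Zeb2 held only without MKO 1 (0.0236). Zeb2 failed without control 1 (0.0755), control 2 (0.142), control 3 (0.0751), MKO 2 (0.130) and MKO 3 (0.119).
None passed among 5 helper and regulatory T cell genes, 5 exhaustion and residency genes, and 2 genes of γδ, invariant and innate lymphoid cells in limma, where 1, 2 and 0 genes of these lists had an unadjusted p under 0.05. edgeR called none of them and DESeq2 called 1, Entpd1. Of 7 naive and memory genes Klf2, a factor of quiescent T cells that endothelium also expresses, rose (0.995, adjusted p = 0.0349, limma), and the call held only without control 1 (0.02). Klf2 failed without control 2 (0.144), control 3 (0.118), MKO 1 (0.0868), MKO 2 (0.0591) and MKO 3 (0.125).

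Macrophage genes moved with the cytotoxic genes. All 10 macrophage markers had every MKO library above every control library, against 10.4% of all genes tested. Of the 10, 8 rose in limma, against 2.96% of all genes tested, and the median log2 fold change of the list was 1.53. Csf1r, the receptor that macrophages need to survive, was the 1 call of the 8 that remained without MKO 2 (0.0351) and without MKO 3 (0.0314). The list's summed normalised count was 13205 to 17229 in MKO livers and 3539 to 7932 in control livers. Of 9 conventional dendritic cell genes 4 rose (Batf3, Wdfy4, Clec9a and Naaa), against the same 2.96%. The first 3 held in all 6 leave-one-out fits, and Naaa was lost in each of them (adjusted p between 0.0651 and 0.154). None of 8 B cell, 5 plasma cell, 5 plasmacytoid dendritic cell, 2 mast cell, 6 hepatocyte, 6 stellate, 6 bile duct and 6 dividing cell genes passed in limma. At an unadjusted p under 0.05 these lists held 2 B cell, 2 plasma cell, 1 plasmacytoid dendritic cell and 1 bile duct gene. edgeR called none of them and DESeq2 called 4, with Cd79b, Bank1 and Runx2 higher and Jchain lower in MKO livers. Jchain, the joining chain of secreted IgM and IgA, had 23.2, 5.10 and 17.3 normalised counts in MKO livers, against 54.3, 268 and 51.2 in control livers. In limma 1 of 4 neutrophil genes (Csf3r) and 1 of 6 endothelial genes (Pecam1) rose, against 2.96% of all genes tested. Csf3r was lost without control 2 (0.0700), MKO 2 (0.0683) and MKO 3 (0.0895), and Pecam1 without control 2 (0.0819), control 3 (0.0641), MKO 2 (0.0816) and MKO 3 (0.0858). The part of myeloid cells in the values of genes they share with lymphocytes was not tested.

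**Figure D3:**
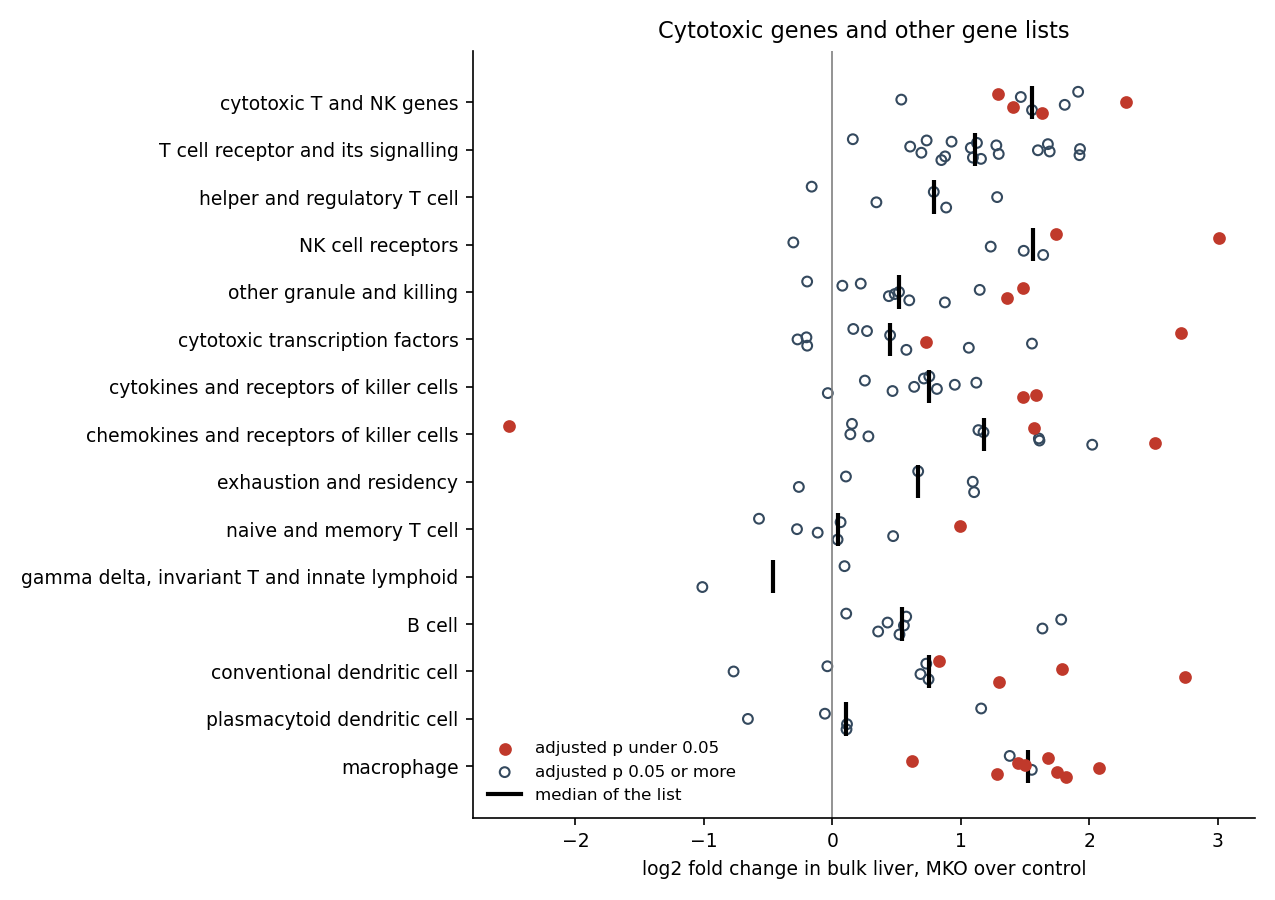
Log2 fold change in bulk liver, MKO over control, of each gene tested in the cytotoxic T and NK genes and in part of the other lists. Circles are genes, filled red where the adjusted p was under 0.05, and black bars are list medians. The plasma cell, mast cell, neutrophil, hepatocyte, endothelial, stellate, bile duct and dividing cell lists are not drawn. The cytotoxic genes had a median of 1.55, the T cell receptor genes 1.11 and the macrophage genes 1.53.

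In which cells the 10 genes lay was read in the nuclei, which the authors had divided into 13 clusters. Values are averages per cluster, scaled so that each cluster sums to 10000. All 10 genes were highest in cluster 7 in both pools. In cluster 7, 29 of 34 genes of the T cell receptor and NK receptor lists, which hold none of the 10, were at least 2-fold above every other cluster in the average of both pools, and it is called the T and NK cluster here. In the control pool Gzmk was 1.07-fold above cluster 10 and Cd8b1 1.31-fold above cluster 11, and the other 8 genes were at least 2-fold above the next cluster in both pools. It holds T and NK nuclei together. With 1 pool per genotype the nuclei values have no replicate check and no test, and the sources used here do not give the number of nuclei behind each average.

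In the T and NK cluster the summed level of the 10 genes was 21.7 in the MKO pool and 15.7 in the control pool. Il2rb was at 4.72 in the MKO pool and 5.26 in the control pool. Nkg7 was at 4.19 in the MKO pool and 2.19 in the control pool. Cd3e was at 4.13 and 3.02, and Gzma at 2.74 and 1.38, in the MKO and control pools. A floor of 1.61 was set for ratios, and a gene passed it if either pool did. These 4 genes passed, Gzma through the MKO pool alone. Their log2 ratios were −0.15 for Il2rb, 0.89 for Nkg7, 0.43 for Cd3e and 0.91 for Gzma. The ratio of Gzma thus rests on a floor that it passed only in the pool where it was high. None of the 4 reached a 2-fold difference. Of the 1602 genes above the floor, 1.81% were at least 2-fold higher in the MKO pool, 2.25% at least 2-fold lower and 39.5% higher by any amount, and their median log2 ratio was −0.11.

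The 6 genes under the floor had lower levels. Gzmb was at 1.58 in the MKO pool and 0.587 in the control pool, a linear ratio of 2.69, the widest of the 10. Cd8a was at 1.52 and 1.01, and Cd8b1 at 1.15 and 0.702, in the MKO and control pools. Prf1 was at 0.742 in the MKO pool and 0.431 in the control pool. Gzmk, a granzyme of memory-type CD8 T cells that had no bulk value here, was at 0.544 and 0.471 in the MKO and control pools. Its gene model overlaps that of Esm1 on the opposite strand. Eomes was lower in the MKO pool, at 0.375 against 0.666 in the control pool. With a floor of 0.5 on the higher pool, chosen after seeing the data, 8 of the 10 genes were higher in the MKO pool by any amount, against 44.1% of 4930 genes. Of these 8, Prf1 and Gzmk passed through the MKO pool alone. Eomes, which was lower, passed through the control pool alone. The count is thus a description. Gzmb alone was at least 2-fold higher, against 197 of the 4930.

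**Figure D4:**
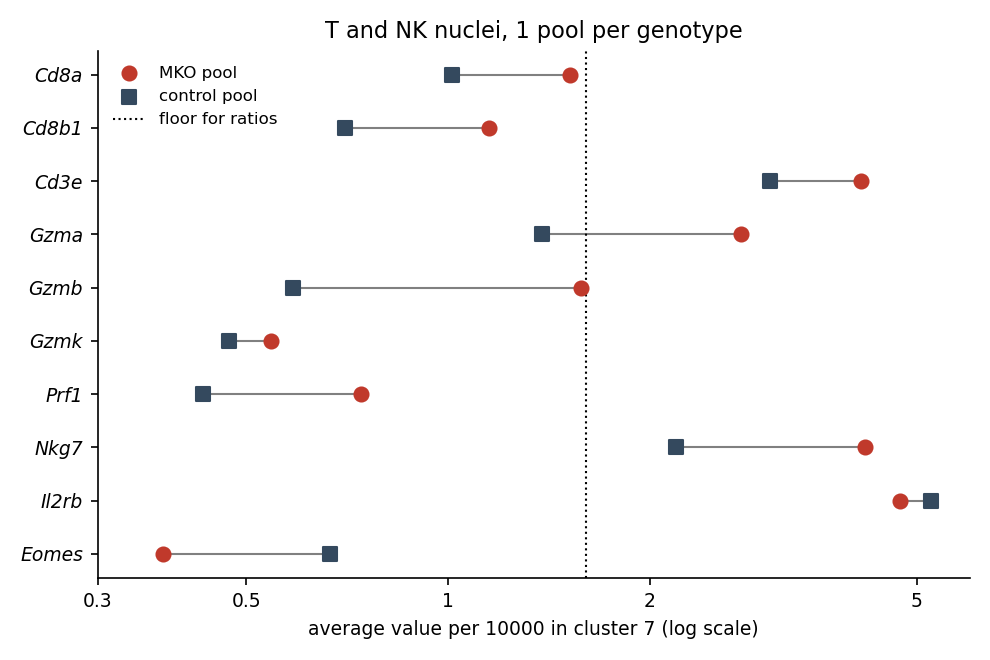
Average value per 10000 (log axis) of the 10 genes in the T and NK cluster, in the MKO pool (red circles) and the control pool (dark squares), with the floor for ratios as a dotted line. The MKO pool is higher in 8 genes and lower in Il2rb (4.72 against 5.26) and Eomes (0.375 against 0.666).

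Il2rb and Eomes thus had higher values in every bulk MKO liver and lower values in the T and NK cluster of the MKO pool. The log2 ratio of Il2rb, −0.15, was close to the cluster's median of −0.11. The sources used here do not say whether the bulk livers were the pooled livers, and the difference between the assays was not tested.

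RNA of other cells was present in the T and NK cluster at unequal levels in the pools. The hepatocyte list summed to 127 in the MKO pool and 86.2 in the control pool, with none of its 6 genes at 0. The macrophage list summed to 2.59 in the MKO pool and 0.878 in the control pool, with 0 and 4 of its 10 genes at 0 in the MKO and control pools. The dividing cell list summed to 0.857 and 0.232 in the MKO and control pools. Their part in the values of the 10 genes was not tested.

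Other lymphocyte genes in the T and NK cluster differed in both directions. The T cell receptor list summed to 82.9 in the MKO pool and 93.1 in the control pool, with 11 of its 18 genes higher in the MKO pool. Its highest gene, the adaptor Skap1, was at 23.8 in the MKO pool and 35.4 in the control pool, and without Skap1, an omission chosen after the values were seen, the list summed to 59.1 in the MKO pool and 57.7 in the control pool. The NK receptor list summed to 23.5 and 22.7 in the MKO and control pools. The chemokine list summed to 28.2 in the MKO pool and 11.6 in the control pool. Its 3 genes at least 2-fold higher were Ccl5, Ccl4 and Ccl3, chemokines that activated killer cells release. Ccl5 was at 13.6 in the MKO pool and 3.99 in the control pool, and Ccl4 at 5.45 and 2.40. Ccl3 passed the floor for ratios through the MKO pool alone (2.19, and 0.610 in the control pool). Ctla4, an inhibitory receptor of activated and regulatory T cells, was at 3.79 in the MKO pool and 0.962 in the control pool. In the exhaustion and residency list 7 of 8 genes were higher in the MKO pool. Havcr2, the inhibitory receptor TIM-3, was at 1.86 and 0.432 in the MKO and control pools, whereas in bulk its mean was 36.0 in MKO livers and 43.0 in control livers (log2 fold change −0.26; adjusted p = 0.743, limma). Itga1, an integrin of tissue-resident lymphocytes, was the 1 gene of the list that was lower, at 2.54 in the MKO pool and 5.85 in the control pool, while the residency integrin Itgae was at 0.611 and 0.200 in the MKO and control pools. The transcription factor genes Lef1 (4.27 in the MKO pool and 6.78 in the control pool) and Bach2 (4.56 and 6.74 in the MKO and control pools), which are high in naive T cells, were also lower in the MKO pool.

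Outside the T and NK cluster the 10 genes were low. Cluster 10, in which the dividing cell list summed to 20.4 in the MKO pool and 27.4 in the control pool, had the next highest sum of the 10 genes, 2.08 in the MKO pool and 2.31 in the control pool. Cd3e was at 0.757 in the MKO pool and 0.473 in the control pool there. Gzmk was at 0.0461 in the MKO pool and 0.439 in the control pool of cluster 10, close in the control pool to its level in the T and NK cluster. Cluster 11, in which the plasmacytoid dendritic cell list summed to 178 in the MKO pool and 230 in the control pool, held Cd8b1 at 0.445 and 0.537 in the MKO and control pools. Cluster 12 had all 10 genes at 0 in both pools.

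Over the 12 clusters outside the T and NK cluster, 65 of 120 gene and cluster pairs were higher in the MKO pool, 16 were lower and 39 were 0 in both. Of the 81 pairs above 0 in either pool, 80.2% were thus higher in the MKO pool, against 46.8% to 58.3% of all genes above 0 in the same clusters. The summed level of the 10 genes was higher in the MKO pool in 10 of these 12 clusters. Low values of T and NK genes in other clusters can come from free RNA, and its part was not tested. In clusters 0, 1 and 3, the clusters highest in Cps1 and Hnf4a, Prf1 reached up to 3.14% of its T and NK cluster level in the MKO pool and 6.53% in the control pool. The other 9 genes stayed at or below 0.653% in the MKO pool and 0.397% in the control pool.

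**Figure D5:**
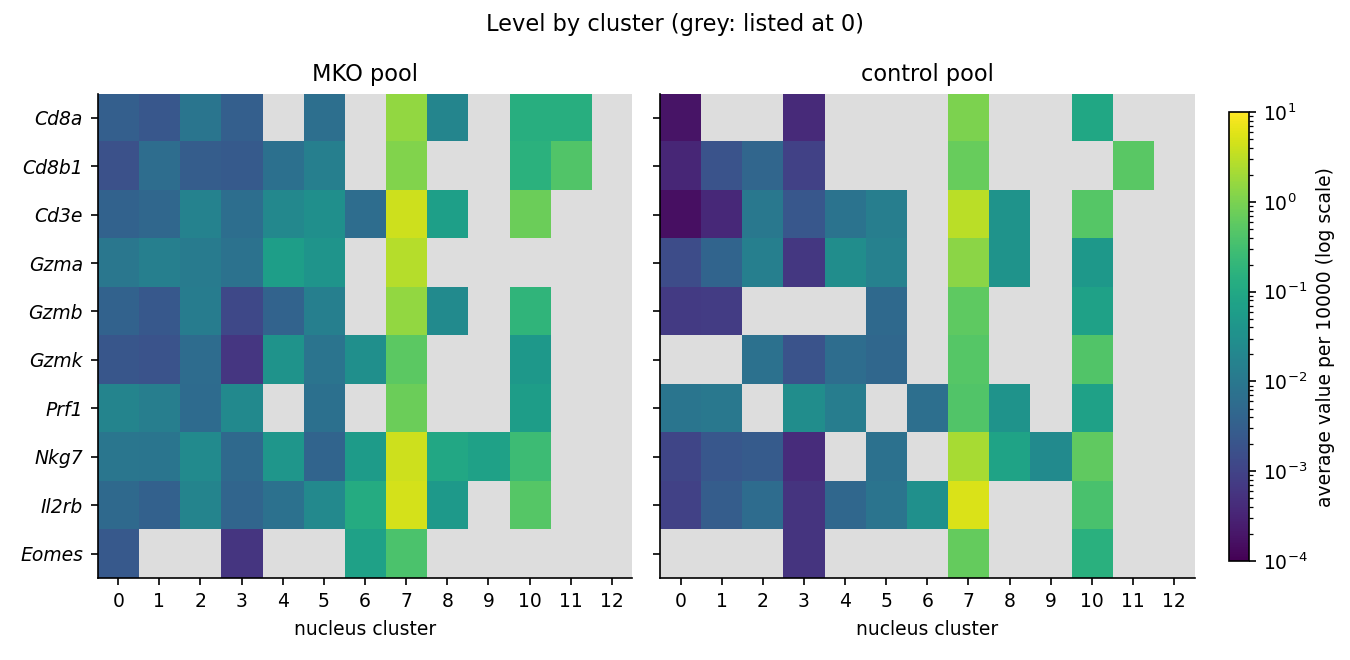
Average value per 10000 (colour, log scale) of the 10 genes in each of 13 nucleus clusters, with the MKO pool on the left and the control pool on the right; grey cells are listed at 0. Cluster 7 has the highest value of every gene in both pools, and cluster 10 has the next highest sum, 2.08 in the MKO pool and 2.31 in the control pool.

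Of the genes whose pattern over the 26 cluster columns was most like the mean pattern of the 10, those named here are Camk4 (Pearson r = 0.988), Cxcr6 (0.980), Cd226 (0.978), Cd3g (0.974), Lef1 (0.972), Txk (0.968) and Bcl11b (0.968), among 2255 genes ranked. The columns share 2 libraries, and the r is a description. Of these, Cd3g was at 4.46 in the MKO pool and 2.21 in the control pool of the T and NK cluster.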

How the data were processed

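Liver RNA was measured by bulk RNA-seq (3 MKO and 3 control libraries) and by sorted nuclei sequencing on the 10x platform (1 pool of 3 livers per genotype). The submitters' processing notes name the build mm10 and, without an order or role, Seurat 4.0.1, RSEM 1.3.3, STAR, DESeq2, FastQC and Cell Ranger. The deposited bulk values are a signal, gene counts divided by a size factor per library, and 100% of them were whole multiples of 1 read's value (tolerance 0.01). The deposited nuclei values are also a signal, an average per cluster that sums to 10000 in each of 26 columns. The authors' deposited table also gives log2 fold changes and adjusted p-values. Because whole reads could be recovered, counts were also tested.

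The main test was limma 3.58.1 (trend) on log2(value + 1) for genes with a mean of at least 1, which left out 34 of 15283 genes, with Benjamini-Hochberg adjustment over all 15249 genes tested and a threshold of 0.05. Fold changes on this scale understate those of low genes. edgeR 4.0.16 and DESeq2 1.42.0 on the recovered reads, TMM scaling, equal totals, other pseudocounts and filters, a replicate block and the omission of each library were the alternatives. In the nuclei the floor was the 90th percentile of the non-zero values of the higher pool, and the pseudocount was 0.161. A gene passed the floor if either pool did. Levels per kb used the union of exons in GENCODE (GRCm38). The fits were tested on simulated data. No 2 libraries were the same library deposited again (chi-square per degree of freedom 28.1 to 73.1).

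The members and lists were chosen with earlier results of these data known. All 10 members are named. From each other list the text names up to 4 called genes with the smallest p, or the gene with the highest mean where it names one and none was called, and in the nuclei genes among the 3 highest of a list. A further rule names the 8 genes most alike in pattern over the nucleus clusters. Klrk1, Ccl3, Itgae and the genes that only edgeR or DESeq2 called were named after their values were seen. Some genes that these rules would name are not reported here.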

Additional observations from a re-analysis of the deposited data

Results flagged for a closer look

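Il2rb had a log2 fold change of 1.29 in bulk liver, with every MKO library above every control library, while its log2 ratio in the T and NK cluster was −0.15, with 4.72 in the MKO pool and 5.26 in the control pool. It drew attention because the signs in whole liver and within the cluster were opposite. The difference in the nuclei was small: relative to the cluster's median log2 ratio of −0.11, Il2rb was at −0.04. Bulk values are of whole liver, and nuclei values are averages within 1 cluster. The difference between the assays was not tested, since the nuclei had 1 pool per genotype. No test for a single outlying library was run within groups of 3 libraries, and the fits that each left out 1 library are given.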

How the results depend on the processing

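The fold change of each of the 9 genes was above 0 under every alternative that gave a value, 133 values in all. The number of the genes called higher was 4 with edgeR, TMM scaling, equal totals, either other pseudocount and either other filter, 5 with DESeq2, which added Gzma, and 0 to 3 when 1 library was left out. No gene was called in all 6 of those fits, and without MKO 3 none was called. With the replicate number as a block, 2 were called, and Cd3e (adjusted p = 0.0615) and Il2rb (0.0620) were not. The same-numbered libraries correlated by 0.06, −0.03 and −0.11 in their deviations from the group means. With 3 libraries per group these values cannot tell whether same-numbered libraries share more than a number. Under the block, 391 genes were higher and 17 lower, against 452 and 13 without it. The median of the 9 genes was 1.20 with a pseudocount of 5. Over all genes, lower calls numbered 50 with DESeq2 and 5 with equal totals, and leaving out 1 library gave 175 to 410 higher and 5 to 31 lower calls. In the nuclei, 1 gene was at least 2-fold higher relative to the cluster's median ratio (Gzma) and 1 with a floor of 0.5 (Gzmb), in place of 0. Gzma had passed the floor for ratios through the MKO pool alone. The causes were not tested. Read numbers of single genes were low, and the nuclei have no replicates.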
